A study of Mus musculus with 6 samples.

Results

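The meiotic crossover factors are 9 genes whose proteins turn recombination intermediates into crossovers: Msh4, Msh5, Hfm1, Shoc1, Tex11, Rnf212, Ccnb1ip1, Cntd1 and Mlh3. They were picked by gene symbol, but with earlier results of these data known, and all 9 were found among the 29333 genes of the table. The samples were whole testes of Hsf5-/- mice (knockout) and of control mice, taken at postnatal day 16, when the most advanced germ cells of the leading wave are in the pachytene stage of meiosis. The labels list 3 samples per group, of which control 1, control 2, knockout 1 and knockout 3 were analysed here. The normalised read counts used here cover only these samples, so no sample was left out by choice. By genotype label the control samples are wild type, but the design text also counts Hsf5+/- testes as control. The sources used here do not say how the mutant allele was made, nor whether each sample is a separate animal. The p-values therefore reflect the spread among these samples, which may be technical.

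Crossovers are the reciprocal exchanges that hold homologous chromosomes together until they separate at the first meiotic division. In the mouse most of them form through the so-called ZMM pathway. Its proteins bind joint DNA molecules along the synaptonemal complex in zygotene and pachytene, stabilise some of them, and hand a small number on to the nuclease that makes the crossover cut. Loss of any of several of these factors in mice leads to spermatocyte arrest and sterility.

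In the knockout testes 5 of the 9 crossover factors fell and none rose. Mlh3, the nuclease subunit that cuts the joint molecules, was left with 53.6% of its control level. Ccnb1ip1, better known as HEI10, was left with 61.5%, Cntd1 with 63.2%, Msh4 with 66.9% and Hfm1 with 74.8%. Rnf212, Shoc1, Tex11 and Msh5 did not pass the test. Falling is a call by limma with a Benjamini-Hochberg adjusted p under 0.05 over all 17480 genes tested, and by that rule 16.8% of all genes were called, 13.5% lower and 3.28% higher. All 9 factors passed the filter on low values, and their median log2 fold change was -0.42, against 0.01 over all genes tested. None of the 9 had an unadjusted p under 0.05 on the higher side, and edgeR and DESeq2 on recovered reads also gave 5 lower and 0 higher, where they called 12.3% and 13.5% of all genes lower.

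**Figure D1:**
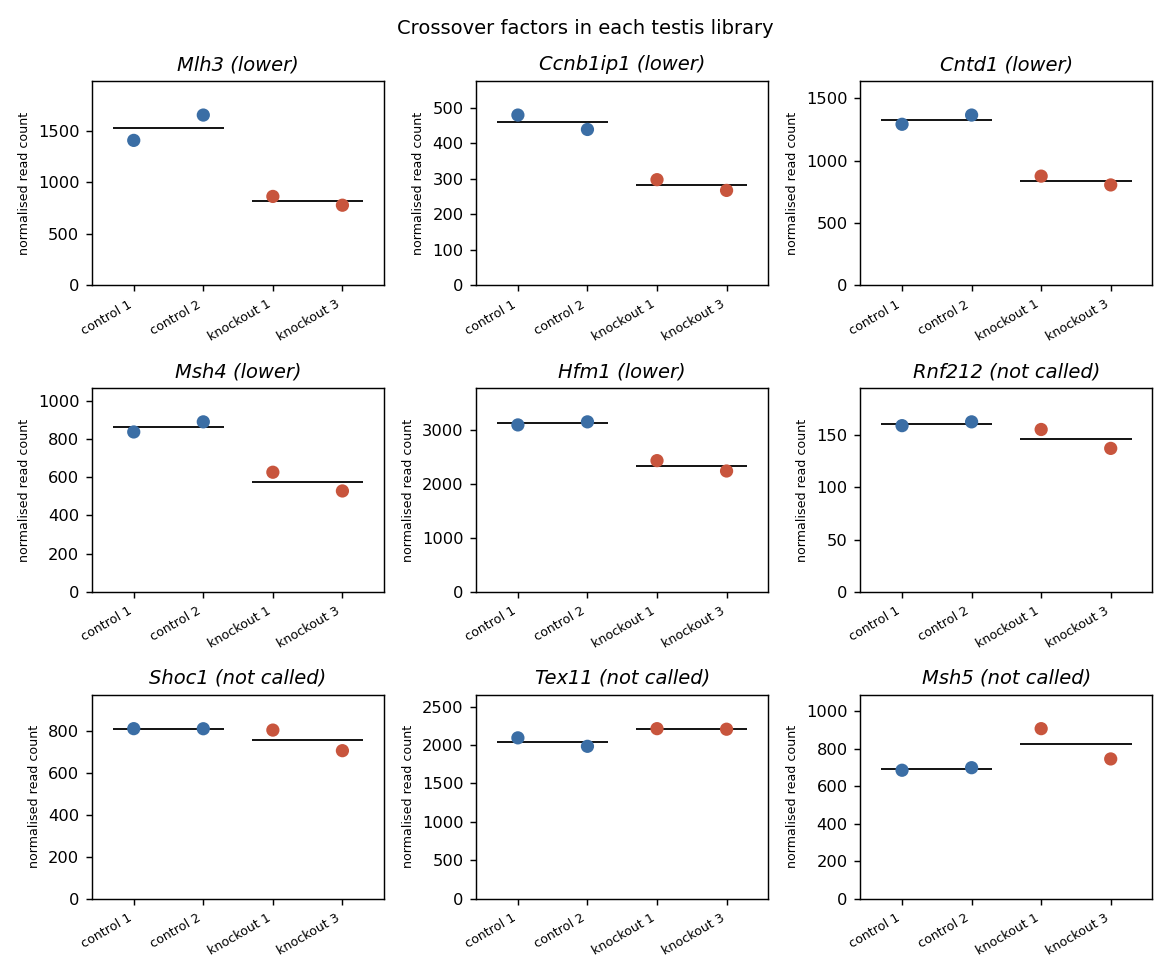
Normalised read count (y axis, from 0) of each crossover factor in the 4 testis libraries (x axis), control in blue and knockout in red, with the group mean as a line. The groups are well apart for the 5 factors called lower, while for Rnf212, Shoc1 and Tex11, which were not called, they lie close together. For Msh5, also not called, knockout 1 lies well above the controls and knockout 3 close to them.

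The libraries held between 16209093 and 18557898 reads. Hsf5 itself stood at 2541 and 3147 normalised read counts in controls 1 and 2 and at 1926 and 1602 in knockouts 1 and 3. Its log2 fold change was -0.69, and the limma call was lost without control 2 or knockout 3 (Benjamini-Hochberg adjusted p = 0.108 and 0.072). Because a count per gene cannot tell which exons were still transcribed, it is no check of the knockout. The tissue label was checked on marker lists. The filter on low values was passed by 31 of 32 genes of early meiotic prophase and all 20 Sertoli cell markers. It was also passed by 17480 of all 29333 genes, so the check is a weak one.

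The regulatory sequence just upstream of the genes is shown for 2 pairs that the results turn on. Msh4 and Msh5 encode the subunits of a single complex and differed in their call, and Mlh3 and Cntd1 gave the 2 lowest adjusted p-values. The sequences are the 250 bases before the start site, from RefSeq on build GRCm38.p6, whereas the submitters' processing notes name mm39. Capitals mark matches, on either strand, to the heat shock element letters GAANNTTC or TTCNNGAA or to the MYB core CAACNG. Both heat shock forms read the same on either strand, and no matches overlapped in these windows.
Msh4, chr3:153904892-153905141, minus strand: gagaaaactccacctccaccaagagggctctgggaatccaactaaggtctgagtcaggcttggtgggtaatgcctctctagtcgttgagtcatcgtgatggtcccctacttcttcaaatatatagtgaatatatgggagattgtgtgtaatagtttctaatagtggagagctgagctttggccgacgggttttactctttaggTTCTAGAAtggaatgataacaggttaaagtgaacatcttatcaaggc
Msh5, chr17:35046623-35046872, minus strand: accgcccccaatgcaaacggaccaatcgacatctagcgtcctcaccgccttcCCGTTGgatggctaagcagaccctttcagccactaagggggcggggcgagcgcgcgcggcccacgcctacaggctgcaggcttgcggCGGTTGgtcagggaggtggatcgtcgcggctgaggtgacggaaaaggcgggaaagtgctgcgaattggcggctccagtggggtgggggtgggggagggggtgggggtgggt
Mlh3, chr12:85270600-85270849, minus strand: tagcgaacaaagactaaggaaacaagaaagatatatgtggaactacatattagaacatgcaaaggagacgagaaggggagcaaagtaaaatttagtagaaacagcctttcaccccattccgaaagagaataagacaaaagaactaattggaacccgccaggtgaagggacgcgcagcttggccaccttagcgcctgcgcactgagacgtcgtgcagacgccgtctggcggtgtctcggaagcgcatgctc
Cntd1, chr11:101278953-101279202, plus strand: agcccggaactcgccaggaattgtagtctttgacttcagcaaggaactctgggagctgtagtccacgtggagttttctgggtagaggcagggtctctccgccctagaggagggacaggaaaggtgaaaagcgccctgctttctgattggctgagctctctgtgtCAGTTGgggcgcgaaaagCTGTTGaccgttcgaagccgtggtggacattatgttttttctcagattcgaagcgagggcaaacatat
Promoters were found for 7 of the 9 factors, with none for Tex11 and Shoc1. The only heat shock element match among the 7 was TTCNNGAA in Msh4, starting 47 bases before the start site. GAANNTTC occurs in 6.78% and TTCNNGAA in 7.10% of the same windows of 27025 genes. The MYB core matched at 2 places in Cntd1 and at 2 in Msh5, and nowhere in the other 5, against 29.3% of all windows with a match. The X-box letters GTTGCC, in 10.5% of all windows, were found in Rnf212 only, and the cAMP response element TGACGTCA, in 1.62%, in none of the 7. A match is a string of letters and not a measured binding site. Msh4, which fell, holds the heat shock match. Cntd1, which fell, and Msh5, which was not called, both hold MYB matches. Mlh3, which fell most, holds none of the letters searched. Whether these letters bear on the changes was not tested.

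MSH4 and MSH5 form a sliding clamp that encircles recombination intermediates and marks sites that may become crossovers. Msh4 had normalised read counts of 836 and 889 in controls 1 and 2 and of 625 and 528 in knockouts 1 and 3. Both knockouts lay well below both controls. The log2 fold change of Msh4 was -0.58 (limma, SE 0.12, Benjamini-Hochberg adjusted p = 0.0122). Its partner Msh5 stood at 684 and 698 in the controls and 906 and 745 in the knockouts. The groups did not overlap, but knockout 3 was close to the controls. Msh5 was not called, with a log2 fold change of 0.25 and a 95% interval of -0.03 to 0.53 (adjusted p = 0.206). A fall as large as that of Msh4 lies outside this interval.

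The ratio of the clamp's transcripts within a library depends little on the scaling between libraries. Here and below, reads per read means the ratio of normalised read counts, with 1 added to each. There were 1.22 and 1.27 Msh4 reads per Msh5 read in controls 1 and 2, and 0.691 and 0.709 in knockouts 1 and 3. In log2 units the ratio went from 0.32 ± 0.04 to -0.52 ± 0.03 (SD, n = 2), a difference of -0.83. The groups did not overlap, and the spread within each was small beside the difference. With 2 libraries against 2, an exact two-sided permutation test cannot go below p = 0.333, which is the value reached.

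Hfm1, the mouse MER3 helicase that unwinds and extends joint molecules, drew the most reads of the 9. It stood at 3094 and 3150 in the controls and at 2432 and 2240 in the knockouts. The controls differed by far less than the gap to the knockouts. Its fall was the smallest of the 5 called, at -0.42 on the log2 scale (limma, SE 0.08, Benjamini-Hochberg adjusted p = 0.00793). Set against Msh4 within a library, Hfm1 changed by 0.17 in log2 ratio, from 3.70 and 3.54 reads per Msh4 read in the controls to 3.88 and 4.24 in the knockouts.

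SHOC1 resembles the XPF nucleases and works with SPO16 on branched DNA, and TEX11 is a scaffold related to yeast Zip4. Shoc1 counts were 810 and 809 in the controls, 803 in knockout 1 and 705 in knockout 3. Only knockout 3 stood clearly lower. The log2 fold change of Shoc1 was -0.11, with a 95% interval of -0.35 to 0.14 (limma Benjamini-Hochberg adjusted p = 0.558). The partner Spo16, listed as 1700028K03Rik, was read at a low level, with 106 and 97.2 in the controls and 70.2 and 65.6 in the knockouts. Its log2 fold change of -0.57 did not pass the test (limma Benjamini-Hochberg adjusted p = 0.141), and its annotation shares 37.0% of its exonic bases with other genes. Shoc1 reads per Spo16 read went from 7.60 and 8.25 to 11.3 and 10.6.

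Tex11 is the only X-linked gene of the 9. It was read at 2093 and 1983 in the controls and at 2213 and 2206 in the knockouts. The knockouts were both slightly higher, by 0.12 on the log2 scale with a 95% interval of -0.06 to 0.30 (limma Benjamini-Hochberg adjusted p = 0.355). On the X chromosome as a whole 1 of 669 tested genes was lower, or 0.149%, and 27 were higher, with a median log2 fold change of 0.18. On the autosomes 14.1% of tested genes were lower. Tex11, at 0.12, lay close to the median of its chromosome. Tex11 reads per Shoc1 read were 2.58 and 2.45 in the controls and 2.75 and 3.13 in the knockouts.

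RNF212 and HEI10 are RING-finger ligases with opposed roles: RNF212 stabilises the MSH4-MSH5 clamp at chosen sites, and HEI10 removes it from the others. Ccnb1ip1, the gene of HEI10, had counts of 480 and 439 in the controls and 298 and 267 in the knockouts. Every knockout value was below every control value. Its log2 fold change was -0.70 (limma, SE 0.14, Benjamini-Hochberg adjusted p = 0.0101). Rnf212 drew the fewest reads of the 9, at 159 and 163 in the controls and 155 and 137 in the knockouts. Knockout 1 was nearly level with the controls. With a log2 fold change of -0.14 and a 95% interval of -0.56 to 0.29, Rnf212 was not called (limma Benjamini-Hochberg adjusted p = 0.664). That interval is the widest among the 9 factors, so a change in Rnf212 is the least closely bounded. Rnf212 reads per Ccnb1ip1 read went from 0.333 and 0.372 to 0.523 and 0.515, a log2 difference of 0.56 with no overlap. The RNF212 paralog gene Rnf212b stood at 260 and 267 in the controls and 327 and 335 in the knockouts, a log2 fold change of 0.33 that was not called (limma Benjamini-Hochberg adjusted p = 0.15).

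CNTD1 is a cyclin-like protein that, with PRR19 and the kinase CDK2, limits the intermediates and matures those that will become crossovers. Cntd1 was read at 1292 and 1366 in the controls and at 876 and 805 in the knockouts. The spread within each group was small beside the gap. Its log2 fold change was -0.66 (limma, SE 0.10, Benjamini-Hochberg adjusted p = 0.0025). In the GENCODE M21 annotation 72.1% of the exonic bases of Cntd1 are shared with Becn1 and Coa3 on the opposite strand, and no source used here says that reads were counted by strand. Becn1 had a log2 fold change of -0.24 and Coa3 of -0.07, neither of them called (limma Benjamini-Hochberg adjusted p = 0.128 and 0.755). Reads of Cntd1 and of these neighbours cannot be fully told apart.

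Prr19 had counts of 449 and 552 in the controls and of 392 and 316 in the knockouts. Its log2 fold change of -0.50 missed the threshold (limma Benjamini-Hochberg adjusted p = 0.0695). Cdk2, which also acts outside meiosis, stood at 3200 and 3367 in the controls and at 2934 and 2904 in the knockouts (log2 fold change -0.17, adjusted p = 0.155). The Cntd1 to Prr19 ratio overlapped between groups, at 2.87 and 2.47 in the controls and 2.23 and 2.55 in the knockouts (exact two-sided permutation p = 0.667). It was the only one of the 6 partner ratios that overlapped. How often the ratios of other gene pairs separate was not computed, so the lack of overlap in the rest has no background to be read against. For single genes, 31.9% were lower and 29.8% higher in both knockouts.

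MLH3 is the endonuclease subunit of the complex that makes the final crossover cut, and its foci mark the sites of crossovers in pachytene. Mlh3 was read at 1408 and 1654 in controls 1 and 2 and at 863 and 778 in knockouts 1 and 3. The controls differed from each other more than the knockouts did, and the groups were well apart. The log2 fold change of Mlh3 was -0.90 (limma, SE 0.11, Benjamini-Hochberg adjusted p = 0.00116), the largest of the 9. Of the 6 within-library ratios reported, that of Msh4 to Msh5 differed most between the groups. Each of the 5 ratios without overlap had an exact two-sided permutation p of 0.333, or 0.4 adjusted over the 6 by the Benjamini-Hochberg method.

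**Figure D2:**
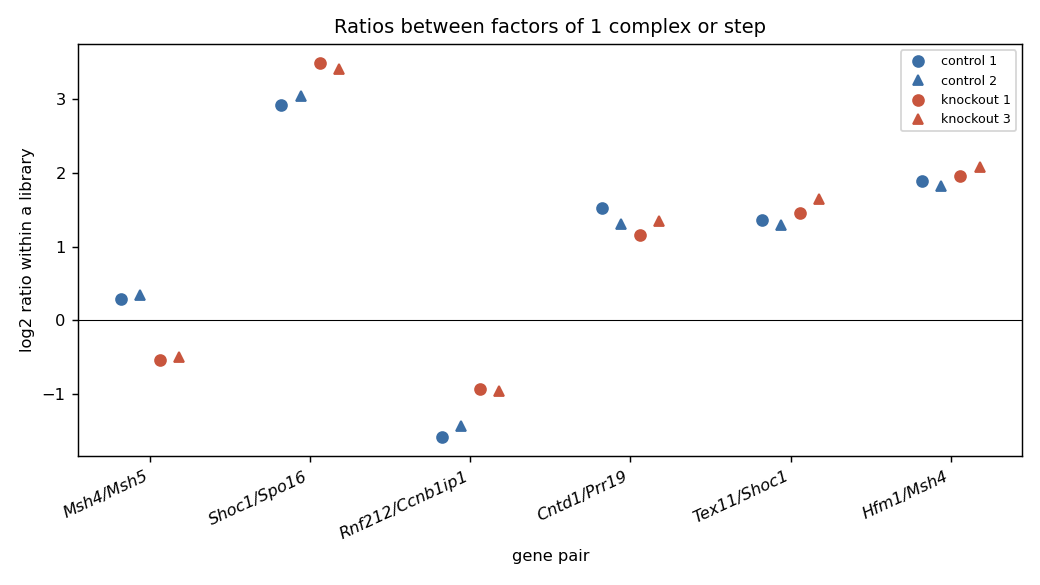
Log2 ratio of normalised read counts plus 1 (y axis) for 6 gene pairs (x axis) within each library. Control is in blue and knockout in red. Msh4/Msh5 is lower in both knockouts, Shoc1/Spo16 and Rnf212/Ccnb1ip1 are higher, and Cntd1/Prr19 overlaps.

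Per kilobase of exon the order of the factors differed between groups. Lengths are exon unions from GENCODE M21 on GRCm38, so these levels are approximate, and those of Cntd1 and Ccnb1ip1 include exons shared with other genes. Ccnb1ip1 shares 12.4% of its exonic bases with Rpph1 on the same strand, for which no value was used here. In the controls Tex11 led with 562 ± 21.5 normalised reads per kilobase, followed by Hfm1 with 467 ± 5.99, Cntd1 with 301 ± 11.8, Ccnb1ip1 with 244 ± 15.3 and Mlh3 with 203 ± 23.1 (SD, n = 2). Shoc1 followed with 140 ± 0.0484, then Msh5 with 125 ± 1.74 and Msh4 with 125 ± 5.41, and Rnf212 was last with 97.6 ± 1.55 (SD, n = 2). Msh4 and Msh5 were the only neighbours in this order whose control values overlapped. In knockouts 1 and 3 Mlh3 stood at 114 and 103 and Msh4 at 90.7 and 76.5, below Msh5 at 164 and 135 and Shoc1 at 139 and 122. The knockout values of Msh5 overlapped those of Ccnb1ip1 and Shoc1, and those of Msh4 overlapped those of Rnf212.

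**Figure D3:**
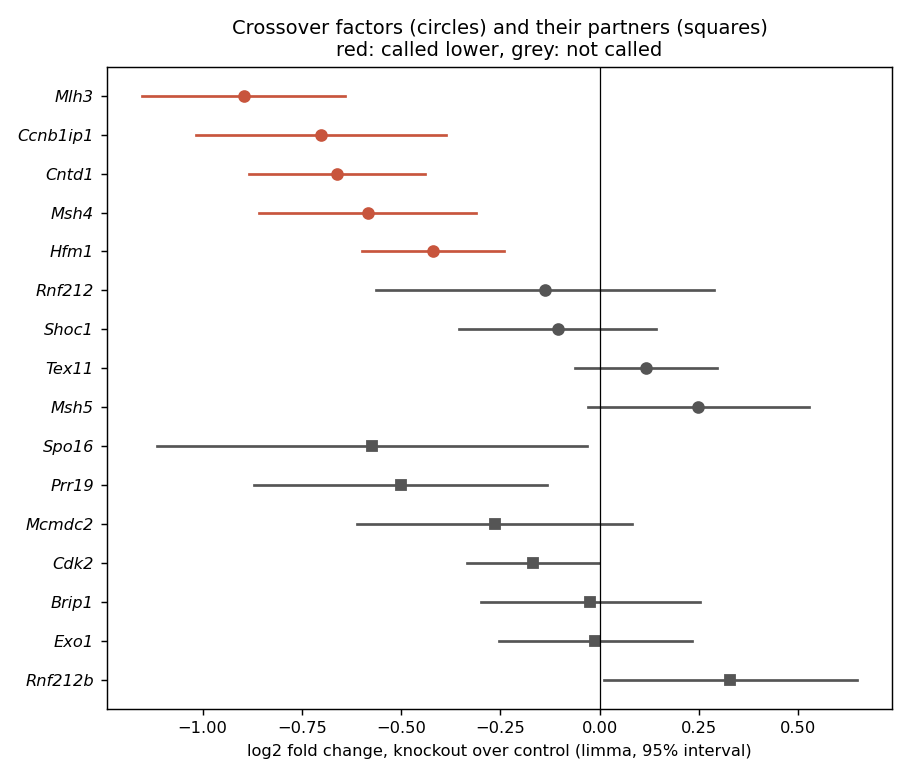
Log2 fold change of knockout over control (x axis) with limma's 95% interval for the 9 crossover factors (circles) and 7 partner genes (squares), listed on the y axis. The intervals of Mlh3, Ccnb1ip1, Cntd1, Msh4 and Hfm1 lie wholly below 0. The intervals are not adjusted for the number of genes, and none of these partner genes was called, although those of Spo16, Prr19, Cdk2 and Rnf212b leave out 0.

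The groups did not overlap in any of the 9 factors: 7 were lower in both knockouts and 2, Msh5 and Tex11, were higher. Such separation is common here, with 31.9% of all tested genes lower and 29.8% higher in both knockouts. In the authors' deposited table Mlh3 has a log2 fold change of -0.90 with an adjusted p of 9.62e-09, Cntd1 of -0.66 with 2.11e-05, Hfm1 of -0.42 with 0.000675, Msh4 of -0.58 with 0.00427 and Ccnb1ip1 of -0.70 with 0.00731. These are also the 5 factors with an adjusted p under 0.05 in the authors' deposited table, where 11.3% of genes with an adjusted p are lower.

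The calls of Mlh3 and Cntd1 held without each library in turn. The limma call of Msh4 was lost without control 1, control 2 or knockout 3 (Benjamini-Hochberg adjusted p = 0.0587, 0.133 and 0.122), as was that of Ccnb1ip1 (0.0775, 0.0824 and 0.0996). The call of Hfm1 was lost without control 2 or knockout 3 (limma Benjamini-Hochberg adjusted p = 0.0861 and 0.0919). With no filter on low values only Mlh3 and Cntd1 were called, in a fit that called 2.78% of all genes lower, and limma without its mean-variance trend called none of the 9 and 0.229% of all genes lower. The fold changes of the 9 are the same in these fits.

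Of 9 genes listed as acting alongside the factors, 8 were tested and none was called by limma, edgeR or DESeq2, where 13.5% of all genes were lower by limma, while 3 had an unadjusted limma p under 0.05 on the lower side and 1 on the higher. Mcmdc2, a helicase-like protein needed for homologue pairing, had a log2 fold change of -0.26, and the exonuclease gene Exo1 and the helicase gene Brip1 of -0.01 and -0.02. Among 19 genes listed for other routes that process recombination intermediates (the joint molecule list), 4 fell, against 13.5% of all genes. Some of the 19 act at steps other than resolving or dissolving joint molecules. Slx4, a scaffold of structure-specific nucleases, fell from 1652 and 2258 to 1069 and 984, a log2 fold change of -0.91, beside -0.90 for Mlh3. Fignl1, which takes the meiotic recombinase DMC1 off DNA, fell by 0.53 on the log2 scale, Fancd2, of the Fanconi pathway, by 0.40, and Rmi1, a partner of the BLM helicase, by 0.39. Slx4 alone kept its call without each library. Leaving out control 2 or knockout 3 ended the limma calls of Fignl1 (Benjamini-Hochberg adjusted p = 0.0716 and 0.0571) and Fancd2 (0.125 and 0.0714). Fancd2 also lost its call without knockout 1 (0.129), and Rmi1 without any 1 library (0.0757 to 0.26).

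The relatives of the MutS and MutL factors in mismatch repair showed 2 falls among 8 genes by limma, against 13.5% of all genes. EdgeR and DESeq2 each gave 1 fall. The median log2 fold change was 0.02. The falls were in Pcna, the replication clamp, at -0.47, and in Msh3, which recognises insertion loops, at -0.34. The limma call of Msh3 was lost without any 1 library (Benjamini-Hochberg adjusted p from 0.0949 to 0.224), and that of Pcna without control 2 or knockout 3 (0.0592 and 0.062).

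Genes that mark the stages of spermatocytes were counted in the same way, beside 13.5% of all genes lower and 3.28% higher. Among 31 tested markers of early prophase there were 8 falls, no rise and 23 genes not called, with a median of -0.15 on the log2 scale, and only 1 fell without control 2 or without knockout 3. Syce1 of the synaptonemal complex led at -0.92, with Brme1 and Hsf2bp, which load recombinases, at -0.60 and -0.46, and Meioc, a meiotic RNA regulator, at -0.44. Syce1 kept its call without each library, while the other 3 lost theirs without control 2 (limma Benjamini-Hochberg adjusted p = 0.31, 0.183 and 0.103) and without knockout 3 (0.275, 0.206 and 0.0682), and Brme1 and Hsf2bp also without control 1 (0.117 and 0.0775). Of 32 pachytene and diplotene markers 29 fell, with a median of -2.04. They were led by Tdrd6, a tudor protein of germ granules, at -5.94 and the sperm protease-family gene Adam3 at -5.90, and by Pou5f2 at -5.63 and Spink2 at -4.46. These 4 were called without each library in turn, but without control 2 stood at -5.25, -4.60, -4.44 and -3.81, and without control 1 at -6.63, -7.20, -6.83 and -5.12. The crossover factors, at -0.90 to 0.25, lay within the range of both lists, which is -5.94 to 0.65 for the pachytene and diplotene markers and -0.92 to 0.37 for the early prophase markers.

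The summed level of the pachytene and diplotene list was 102390 and 156988 in controls 1 and 2 and 40634 and 33719 in the knockouts, so it also differed between the controls, with a median log2 difference of control 2 over control 1 of 0.89. For the 9 crossover factors that median was 0.03, and the values ran from -0.13 for Ccnb1ip1 to 0.23 for Mlh3. The early prophase sum was 83250 and 91577 in the controls and 82769 and 70373 in the knockouts. Sertoli markers summed to 148031 and 141092 in the controls and to 172709 and 163271 in the knockouts, and 6 of 20 rose, a number that went to 3 without control 1 or knockout 1, 0 without control 2 and 2 without knockout 3. With all 4 libraries, 3.28% of all genes were called higher. In whole testis, fewer cells of a type and less RNA per cell cannot be told apart. The part of such differences in the falls of the crossover factors was not tested.

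**Figure D4:**
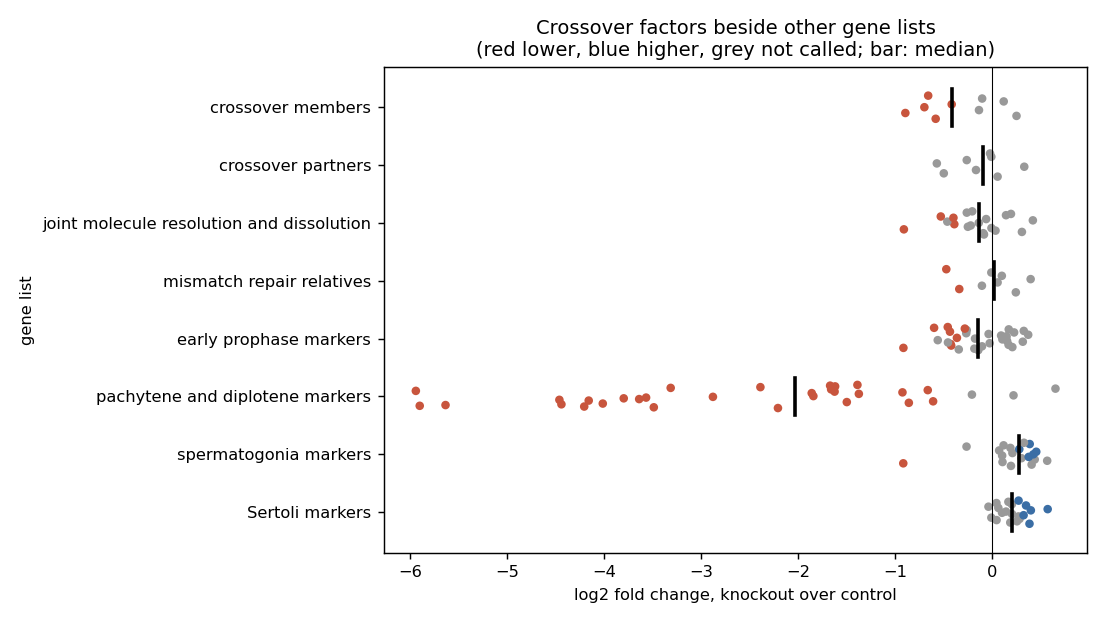
Log2 fold change of knockout over control (x axis) for the tested genes of 8 lists (y axis), each dot a gene and each bar the list median. The medians are -0.42 for the crossover factors, -0.15 for the early prophase markers and -2.04 for the pachytene and diplotene markers, and the factors lie within the range of both marker lists.

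Each factor was also set against the early prophase markers by centring every library on their median log2 value. On that scale Mlh3 stood at -0.67, Ccnb1ip1 at -0.47 and Cntd1 at -0.43, and all 3 kept their call, beside 9.27% of all genes called lower. Msh4 and Hfm1 stood at -0.35 and -0.19 and were not called (limma Benjamini-Hochberg adjusted p = 0.0557 and 0.137). Msh5 and Tex11 were called higher, at 0.48 and 0.35 (limma adjusted p = 0.0184 and 0.0288), beside 19.2% of all genes. This scaling moved the median of all genes to 0.25. It also left the 31 early prophase markers themselves above 0, with a median of 0.08, and 8 of them called higher and 1 lower. A higher call on this scale is therefore not a rise beyond the early prophase genes as a set. With the centring by each marker's deviation from its own mean, chosen after seeing the data, Mlh3 alone was called lower and no factor was called higher, beside 8.99% and 4.38% of all genes. Scaled to Sertoli markers instead, the same 5 factors were lower as on the deposited scale, beside 25.7% of all genes. Without control 2, knockout 1 or knockout 3 the centring on the median log2 value left 1 factor lower, and 1, 1 and 0 higher.

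**Figure D5:**
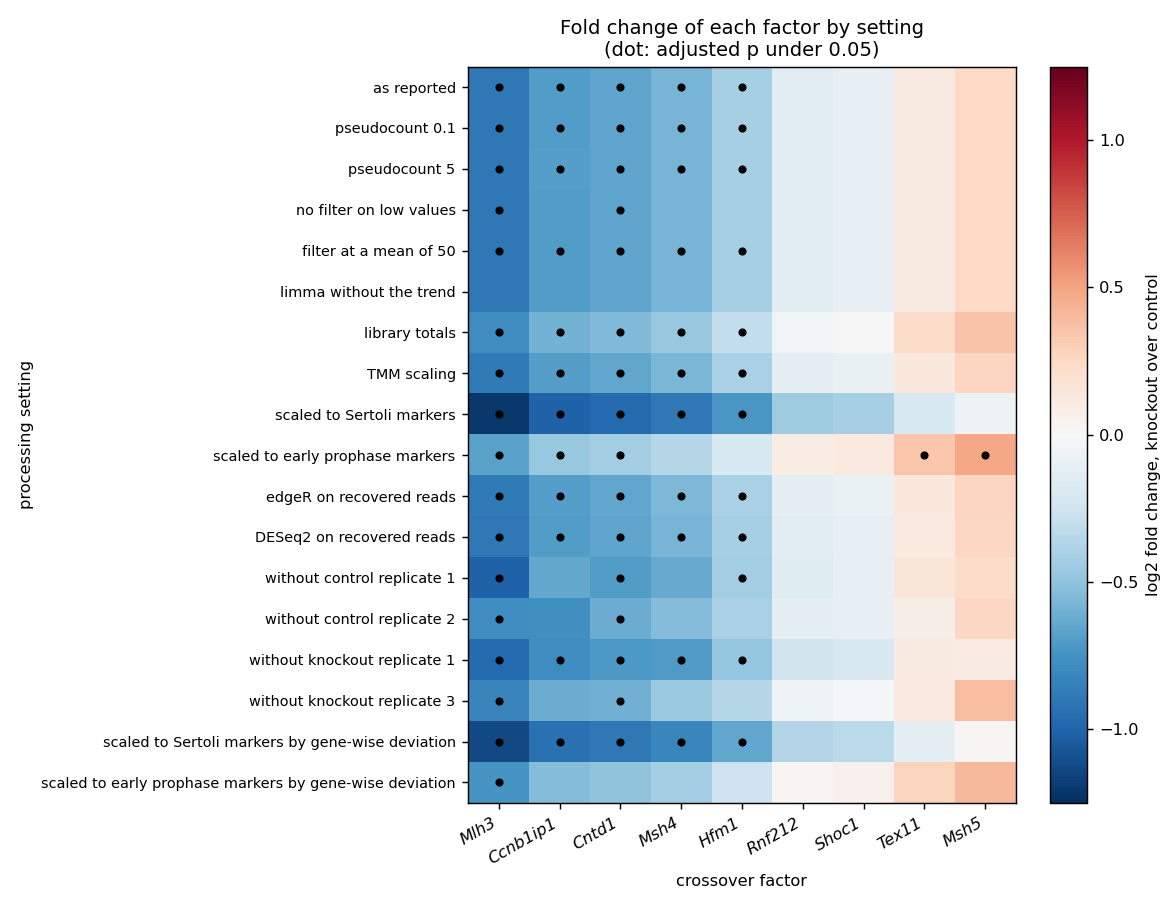
Colour gives the log2 fold change of knockout over control for each crossover factor (x axis) under each processing setting (y axis), and a dot marks an adjusted p under 0.05. Mlh3 is called under every setting shown other than limma without the trend, and Msh5 and Tex11 are called only when scaled to early prophase markers.

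The 3 genes whose centred log2 values over the 4 libraries lay closest to those of Mlh3 were the pseudogene Gm48009, the centriole cap gene Ccp110 and the chaperonin subunit gene Tcp1, at Euclidean distances of 0.02, 0.03 and 0.03. There were 192 genes within a distance of 0.2, so with 4 libraries the likeness is shared by many. The profile of Ccp110 was 7599 and 8769 in the controls and 4622 and 4087 in the knockouts.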

How the data were processed

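Whole-testis RNA was sequenced from 6 samples, and 4 were analysed. Build mm39 and the tools cutadapt, Bowtie2, featureCounts and DESeq2 are named, without settings or an annotation release, in the submitters' processing notes. The deposited signal is a normalised read count, and in each library 100% of values were whole multiples of a single step (within 1e-06), from which reads were recovered for alternatives only. Per the file headers the authors' table also gives log2 fold changes with their errors, a test score, p-values and adjusted p-values.

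The main test was limma (version 3.58.1, R 4.3.3) with a mean-variance trend, fitted to log2(value + 1) of genes with a mean of at least 10, with 6.3 prior and 2 residual degrees of freedom. This scale understates fold changes where values are low. The planned edgeR test on counts became an alternative on recovered reads (edgeR 4.0.16, DESeq2 1.42.0), since the table holds normalized values. The test was also run on simulated counts with a common dispersion for all genes and as many rises as falls. In the data most calls were falls, so that run does not check the calls made here. The labels give no batch. The factors, lists and rule for named genes (factors, partners, and up to 4 called genes per list) were chosen with earlier results of these data known, and 2 marker scalings were added after seeing the data. Of the listed genes 2, Redic1 and Tnp1, were not matched. Exo1, Brip1, Mcmdc2, Prm1 and Prm2 were named outside that rule, after their values were seen. Some listed genes are counted in their lists but not reported here, and neither is a ratio that needs them.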

Additional observations from a re-analysis of the deposited data

How the results depend on the processing

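No paired analysis was possible because the labels do not pair control with knockout samples. The analysed columns of the groups also share only 1 replicate number. With 2 libraries per group only changes well above the spread can be called, and Rnf212, with the fewest reads, has the widest interval. Lower calls among the 9 factors numbered 5 under both other pseudocounts, a filter at a mean of 50, library totals, TMM, both Sertoli scalings, edgeR and DESeq2, 2 without a filter on low values, 0 without the trend (where limma called 40 of all 17480 genes), 3 when scaled to early prophase markers and 1 with the gene-wise form of that scaling, and 2 to 5 without each library in turn. Higher calls were 0 except for 2 when scaled to early prophase markers. Against those markers, leaving out libraries gave 1 to 2 lower and 0 to 2 higher factors, and the gene-wise form gave 1 and 0. Of partner genes 3 were lower with either Sertoli scaling and 1 was higher with the early prophase scaling. Of the 4 joint molecule falls 0 remained in number without a filter or without the trend, 2 with library totals or early prophase scaling, 1 with its gene-wise form, 8 and 7 with the 2 Sertoli scalings, and 1 to 4 without each library; rises were 1 with library totals, 3 with early prophase scaling and 1 with its gene-wise form. Of the 2 mismatch repair falls there was 1 without a filter, with library totals, TMM, edgeR and DESeq2, 0 without the trend and with both early prophase scalings, and 0 to 1 without each library; rises were 1 with library totals and 2 with early prophase scaling. Falls were 80.5% of all calls, 57.0% with library totals, 99.4% and 98.6% with the Sertoli scalings, and 32.6% and 67.3% with the early prophase scalings, which move the median of all genes to 0.12, -0.29, -0.22, 0.25 and 0.17.

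Of the factors and partners reported here, no value that changed sign was called, in the deposited scale or in the alternative that changed it. With Sertoli scaling and its gene-wise form it was Tex11 (-0.19 and -0.12), and with Sertoli scaling alone Msh5 (-0.059). With early prophase scaling and its gene-wise form they were Rnf212 (0.092 and 0.020), Shoc1 (0.12 and 0.053), Exo1 (0.22 and 0.15) and Brip1 (0.21 and 0.13), and with early prophase scaling alone Cdk2 (0.061). With library totals they were Shoc1 (0.0036), Exo1 (0.098) and Brip1 (0.085). Exo1 was 0.0053 with TMM and 0.0067 with edgeR. Without each library in turn Exo1 ranged from -0.11 to 0.084 and Brip1 from -0.13 to 0.082. All 6 partner ratios kept their direction under both pseudocounts and without each library. Beyond these constructions the cause of the changes was not tested.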

Other observations

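Over all genes limma called 13.5% lower and 3.28% higher, and the counts below stand beside these shares. None of the tested myoid (6), macrophage (7) and endothelial (7) markers was called by limma, with 1 myoid marker higher and 1 macrophage marker lower at an unadjusted p under 0.05. EdgeR called none of them, and DESeq2 called 1 myoid marker higher. Of 10 Leydig cell markers 1 rose, and none rose when any 1 library was left out. Of 5 red blood cell markers 3 rose (median 0.73 on the log2 scale), and this number was 1 without control 1, 2 without knockout 1 and 0 without control 2 or knockout 3. Spermatogonial markers rose in 5 of 19 and fell in 1, with a median of 0.28, and 2 rose without control 1 and none without control 2, knockout 1 or knockout 3. Of 7 tested round spermatid markers 3 fell, with a median of -0.18, and 2 fell without knockout 1 and 1 without control 2 or knockout 3, while the protamine genes Prm1 and Prm2 did not pass the filter on low values.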
